A study of Homo sapiens with 6 samples.

Results

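The dual specificity phosphatase (DUSP), Sprouty, SPRED, EGR, IER, PEA3 and ternary complex factor genes that surround the ERK pathway were followed in MHCC-97H, an established human hepatocellular carcinoma line with high metastatic potential. The 37 genes were taken by symbol from the 20388 gene symbols of the expression table, and all 37 were present. In 1 group, cells received GK921, which blocks the crosslinking enzyme transglutaminase 2 (gene TGM2), at 2 µM over 24 h (3 libraries), and control cells received DMSO over 24 h (3 libraries). Both groups were labelled wild type, and all libraries were of 1 line, with total RNA as the starting material. Nothing in the labels tells whether libraries within a group are separate cultures, and p-values therefore reflect only how far these libraries vary, possibly for technical reasons.

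ERK, JNK and p38 are mitogen-activated protein kinases (MAPKs) that carry signals from growth factor receptors and from stress to the nucleus. ERK activates ternary complex factors, which sit with serum response factor (SRF) on CArG boxes, the DNA elements that SRF binds, and switch on immediate early genes such as EGR1. It also raises its own inhibitors: DUSP enzymes that remove phosphate from MAPKs, Sprouty proteins that block the signal between receptor and RAS, and SPRED proteins that bring the RAS inhibitor neurofibromin to the membrane. In hepatocellular carcinoma, loss of Sprouty and SPRED expression and high ERK activity are known features.

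Promoters of the 2 members that rose furthest and the 1 that fell furthest are shown first, since each holds matches to an element that is rare among promoters. They were picked with their matches known, so the pairing of element and direction follows from that choice. The RefSeq table (GRCh38.p14) held windows of 30 of the 37 members. DUSP4, DUSP5, DUSP12, EGR3, IER3, ETV4 and ETV5 were not among them. The 250 bases before the RefSeq gene start are printed 5′ to 3′ on the strand of the gene. Capitals mark the cAMP response element (CRE), spelled TGACGTCA, in DUSP1 and DUSP8, which rose, and the CArG box in EGR1, which fell. DUSP8 was low in DMSO and was tested only because of its level after GK921. The windows of SPRY1, which also fell by at least 1 log2 unit, held no CRE and no CArG box and are not printed. The DUSP1 window is chr5:172771196-172771445 (minus strand), the DUSP8 window chr11:1572272-1572521 (minus strand) and the EGR1 window chr5:138465229-138465478 (plus strand).
DUSP1: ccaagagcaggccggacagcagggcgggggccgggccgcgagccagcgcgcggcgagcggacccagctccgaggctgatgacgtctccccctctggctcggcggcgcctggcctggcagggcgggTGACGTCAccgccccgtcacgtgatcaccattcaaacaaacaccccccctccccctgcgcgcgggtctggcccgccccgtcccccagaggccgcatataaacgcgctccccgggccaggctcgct
DUSP8: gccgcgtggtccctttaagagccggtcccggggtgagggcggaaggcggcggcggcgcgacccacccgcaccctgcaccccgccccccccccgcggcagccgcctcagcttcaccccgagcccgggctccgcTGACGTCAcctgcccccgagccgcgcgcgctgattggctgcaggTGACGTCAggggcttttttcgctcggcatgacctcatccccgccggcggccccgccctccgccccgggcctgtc
EGR1: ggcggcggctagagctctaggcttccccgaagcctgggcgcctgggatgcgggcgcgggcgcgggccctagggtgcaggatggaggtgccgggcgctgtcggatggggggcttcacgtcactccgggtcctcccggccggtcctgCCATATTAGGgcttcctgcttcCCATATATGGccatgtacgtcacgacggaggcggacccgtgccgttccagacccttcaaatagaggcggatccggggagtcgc

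Of the 30 members with a window, DUSP1 and DUSP8 were the 2 with a CRE, DUSP1 with 1 match and DUSP8 with 2. Members can have several starts, and the 30 had 46 windows. Of all 27305 genes with a window, 2.03% held a CRE in at least 1 window (1.65% of 35116 windows). CArG boxes were found in EGR1, EGR2 and SRF, against 1.44% of all genes, with 2 matches each in EGR1 and SRF. The other motifs searched, on both strands, were the CRE core TGACG (13 members, 24.9% of all genes), which lies within the CRE, the AP-1 site TGAGTCA (1 member, 5.19%) and the ETS core CCGGAAGT (1 member, 4.13%). The EGR site, GCGGGGGCG or GCGTGGGCG, was found in DUSP2, SPRY1, SPRY2 and SRF (6.50% of all genes), and the C/EBP-ATF site TGATGCAA in no member (0.967%). Across the 338 tested genes with a CRE in such a window, 49.4% were called higher after GK921 and 28.99% lower, with a median log2 change of 0.17. Over all 9371 tested genes with a window these shares were 46.9% and 29.4% and the median 0.16, close to those of the genes with a CRE. Of the 129 tested genes with a CArG box, 48.1% were called higher and 34.9% lower, with a median log2 change of 0.15. SRF, with its 2 CArG boxes, was called higher, unlike EGR1. A match is a description of the letters and not a measured binding site.

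RNA levels were deposited as FPKM (fragments counted on a gene, divided by its transcript length and by the mapped fragments of the library), a unit in which levels can be compared between genes. It is relative to each library's total, so it shows neither a change of total RNA per cell nor one of cell number. Library sums lay between 821498 and 836182 FPKM, and 13992 to 14433 genes were above 0. Depth relative to the deepest library, read from the steps between low values, was 0.767 to 0.862 after GK921 and 0.872 to 1 in DMSO, so values near 0 were coarser after GK921. Libraries correlated at r = 0.993 to 0.995 within a group across genes and at 0.914 between groups. TGM2 mRNA was at 42.6 ± 0.345 FPKM after GK921 and 42.1 ± 0.0265 FPKM in DMSO (SD, n = 3 each, as for every mean below), which does not bear on inhibition of the enzyme. Of 8 liver and epithelial markers, the keratins KRT8 and KRT18 were abundant, while ALB, AFP, APOB, TTR, SERPINA1 and EPCAM averaged under 1 FPKM in both groups. The summed blood cell markers were at most 0.76 FPKM after GK921 and 1.41 FPKM in DMSO, and the fibroblast markers summed to 1.07 to 1.45 FPKM after GK921 and 7.38 to 9.17 FPKM in DMSO, most of it decorin (DCN), with COL1A1 at 0 after GK921 and at most 0.02 FPKM in DMSO. PDGFRB went the other way, at 0.31 to 0.35 FPKM after GK921 and 0 to 0.03 FPKM in DMSO. Endothelial markers summed to 3.56 to 4.98 FPKM after GK921 and 3.6 to 4.3 FPKM in DMSO, nearly all PECAM1, with CDH5 listed at 0. The part of these marker differences in the members' values was not tested.

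The 37 genes did not move as 1 block. Genes that averaged 1 FPKM or more across the 6 libraries were tested with limma on log2(FPKM + 1) and called at a limma adjusted p under 0.05 over all 11573 tested genes. Of the 33 members tested, 19 were called higher after GK921 (57.6%, against 46.8% of all tested genes) and 7 lower (21.2%, against 29.2%), and 7 were not called. Of all tested genes, 75.9% were called in one direction or the other. Over all tested genes the median log2 change was 0.16. With libraries rescaled by median ratios, which removes that shift, 17 members were higher (51.5%, against 36.4% of all tested genes) and 12 lower (36.4%, against 37.9%). Upper-quartile scaling gave 19 higher (57.6%, against 39.9%) and 10 lower (30.3%, against 34.5%), and quantile normalization 18 higher (54.5%, against 37.9%) and 12 lower (36.4%, against 35.3%). With median ratios PHLDA1 and SRF lost their call as higher, and DUSP4, SPRY2, SPRY4, SPRED2 and ELK1 were called lower. For 27 members the 2 groups had separate ranges, against 78.0% of all tested genes. Called changes of at least 1 log2 unit were seen in 6 members (18.2%, against 16.1% of all tested genes). They were upward in 3, DUSP1, DUSP8 and ETV5 (against 9.87% of all tested genes), and downward in 3, EGR1, ETV4 and SPRY1 (against 6.24%). DUSP8 averaged under 1 FPKM in DMSO and was tested only because of its level after GK921, so its call adds nothing to these counts. Without it 18 of 32 members were higher and 2 rose by 1 log2 unit or more.

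**Figure D1:**
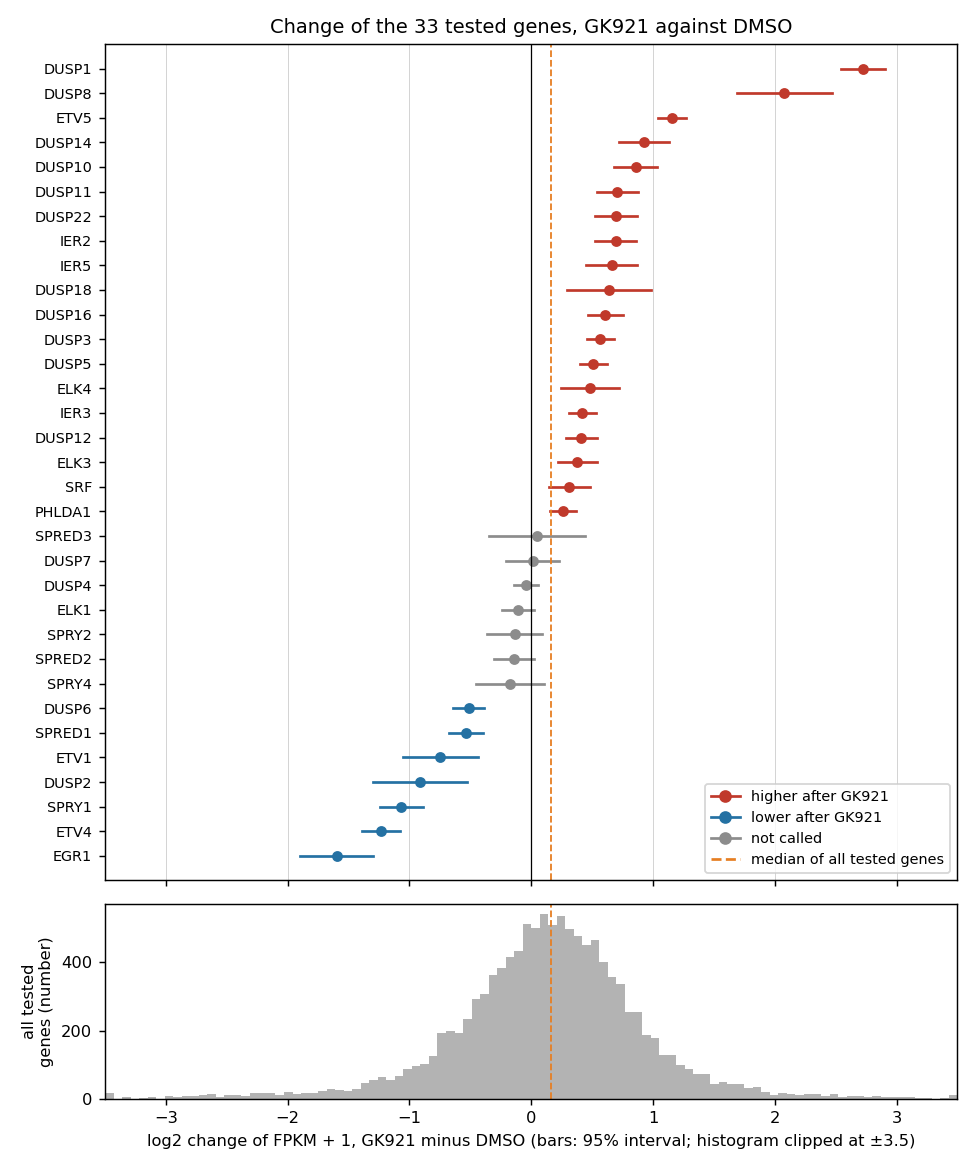
Change of each of the 33 tested members, as the log2 difference of FPKM + 1, GK921 minus DMSO, with its 95% interval, sorted by size and coloured by call; the dashed line is the median of all 11573 tested genes, whose distribution is drawn below. DUSP1 at 2.72 and DUSP8 at 2.08 stand at the top and EGR1 at -1.60 at the bottom.

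The nuclear, inducible MAPK phosphatases DUSP1, DUSP2, DUSP4 and DUSP5 went 3 ways. DUSP1 (chr5:172768090-172771195), which inactivates p38, JNK and ERK in the nucleus and is itself an immediate early gene, had 68.3, 67.3 and 71.0 FPKM after GK921, against 9.27, 10.9 and 8.60 FPKM in DMSO. Every GK921 library lay far above every DMSO library. The rise was 7.17-fold, with a log2 change of 2.72 ± 0.080 (SE, limma adjusted p = 7.37e-09). DUSP5, whose enzyme acts on ERK alone, averaged 63.3 ± 0.793 FPKM after GK921 and 44.1 ± 2.66 FPKM in DMSO, a rise of 0.51 ± 0.050 on the log2 scale (limma adjusted p = 1.51e-05). Its 2 annotated processed pseudogenes could share reads with it. DUSP2, best known from blood cells, fell to 0.79, 1.35 and 1.21 FPKM after GK921, against 3.81, 2.58 and 2.59 FPKM in DMSO. These values are low, and the log2(FPKM + 1) scale understates the fall, 0.91 ± 0.17 log2 units (limma adjusted p = 0.000998). DUSP4, an ERK and JNK phosphatase that is raised by ERK itself, had 54.7, 53.4 and 54.0 FPKM after GK921, against 53.6, 55.6 and 57.8 FPKM in DMSO. The groups overlapped, and the 95% interval of the log2 change was -0.14 to 0.05 (limma adjusted p = 0.392).

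DUSP6, the cytoplasmic phosphatase specific for ERK and the most abundant DUSP gene in DMSO, fell. It had 57.7, 53.4 and 50.9 FPKM after GK921, against 74.0, 80.1 and 78.2 FPKM in DMSO. The groups were well separated, at 1.44-fold lower after GK921 (log2 change -0.51 ± 0.055, limma adjusted p = 2.65e-05). An annotated antisense transcript covers 40.5% of the exonic bases of DUSP6. No source states whether counting used strand, so reads of DUSP6 and that transcript cannot be told apart there. DUSP7, its closest cytoplasmic relative, was at 8.66 ± 0.587 FPKM after GK921 and 8.60 ± 0.953 FPKM in DMSO, with a 95% interval of -0.21 to 0.23 for the log2 change.

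All 3 phosphatases that prefer JNK and p38 rose: DUSP8, DUSP10 and DUSP16 (46.8% of all tested genes were higher). DUSP8 averaged 0.953 FPKM in DMSO and was tested only because of its level after GK921, so it adds nothing to that count. DUSP8 (chr11:1554044-1571920) had 8.70, 5.76 and 7.33 FPKM after GK921, against 1.31, 0.65 and 0.90 FPKM in DMSO. All 3 GK921 libraries lay above the DMSO libraries. Its log2 change was 2.08 ± 0.17 (limma adjusted p = 5.05e-06), and 3 annotated processed pseudogenes could share reads with it. DUSP10, which restrains JNK and p38 in the cytoplasm and nucleus, had 27.2, 25.8 and 25.2 FPKM after GK921, against 12.4, 14.3 and 15.2 FPKM in DMSO (log2 change 0.86 ± 0.078, limma adjusted p = 9.11e-06). DUSP16, a JNK phosphatase that shuttles between nucleus and cytoplasm, averaged 27.6 ± 1.15 FPKM after GK921 and 17.8 ± 0.938 FPKM in DMSO (log2 change 0.61 ± 0.061). None of these 3 genes had overlapping groups, as was the case for 78.0% of all tested genes.

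The 6 tested atypical DUSP genes, small phosphatases without the MAPK docking domain, all rose, by 0.41 to 0.92 log2 units (46.8% of all tested genes were higher). The most abundant was DUSP3, whose enzyme dephosphorylates ERK and JNK, with 88.8, 93.0 and 83.8 FPKM after GK921, against 57.2, 61.4 and 59.8 FPKM in DMSO (log2 change 0.57 ± 0.049, limma adjusted p = 6.56e-06). DUSP14 changed most of the 6, at 63.8, 72.8 and 74.8 FPKM after GK921, against 34.0, 34.1 and 42.2 FPKM in DMSO (log2 change 0.92 ± 0.091). DUSP11 and DUSP12 do not belong to MAPK control by their known roles. DUSP11, which trims phosphates from the 5′ end of RNA, was 1.66-fold higher, and DUSP12, a zinc-binding phosphatase, 1.34-fold higher. DUSP22, which acts on JNK signalling, and DUSP18, found in mitochondria, each rose 1.67-fold. DUSP18 shares 34.4% of its exonic bases with SLC35E4 on the opposite strand. DUSP23 was under the limit, at 0.94, 1.17 and 0.63 FPKM after GK921 and 0.54, 1.34 and 0 FPKM in DMSO.

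Both the summed level of the DUSP genes and their order differed between the groups. The 16 DUSP genes summed to 577, 583 and 568 FPKM after GK921, against 385, 402 and 403 FPKM in DMSO, 1.45-fold higher. DUSP6 ranked 1st of 16 in DMSO and 6th after GK921, where its values overlapped those of DUSP4. DUSP1 ranked 3rd after GK921 and 11th in DMSO. The 3 JNK and p38 phosphatases summed to 61.0 ± 3.26 FPKM after GK921 and 32.7 ± 0.739 FPKM in DMSO, and the 2 cytoplasmic ERK phosphatases to 62.6 ± 2.91 FPKM after GK921 and 86.1 ± 2.34 FPKM in DMSO.

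**Figure D2:**
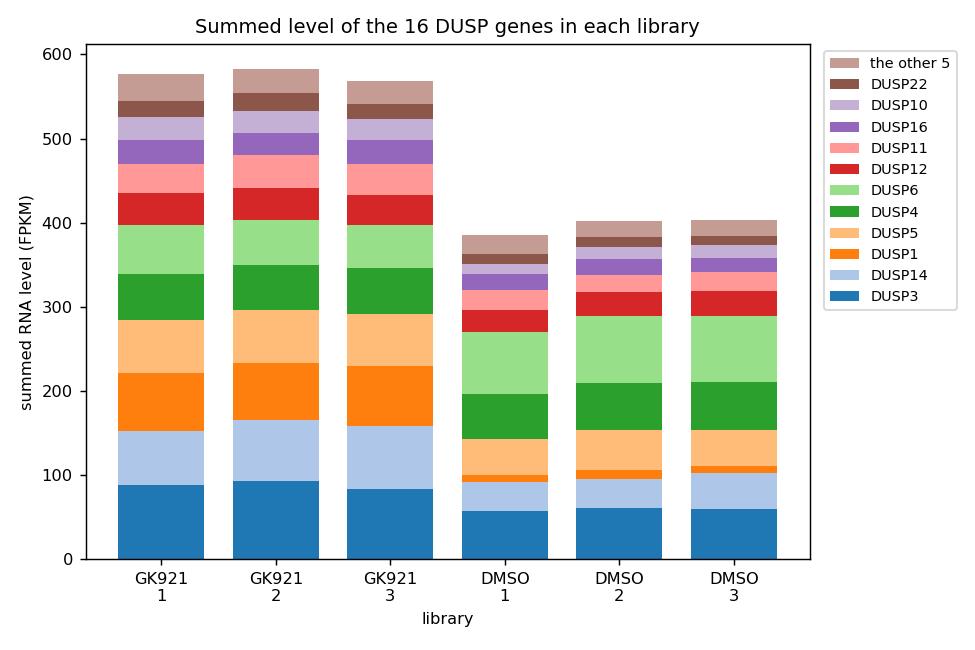
Summed RNA level (FPKM) of the 16 DUSP genes in each of the 3 GK921 and 3 DMSO libraries, stacked by gene from a base of 0. The GK921 bars reach 568 to 583 and the DMSO bars 385 to 403, with a wider DUSP1 segment and a narrower DUSP6 segment after GK921.

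Sprouty and SPRED genes, inhibitors that act above RAF, gave 2 called falls among 6 tested genes (33.3%, against 29.2% of all tested genes) and no called rise (against 46.8%). SPRY1 (chr4:123396795-123403760) had 6.0, 5.64 and 5.24 FPKM after GK921, against 12.5, 13.3 and 12.7 FPKM in DMSO. The groups were clearly apart (2.29-fold lower, log2 change -1.07 ± 0.078, limma adjusted p = 2.29e-06). SPRY2, the most abundant Sprouty gene, had 16.2, 17.1 and 14.1 FPKM after GK921, against 17.7, 15.3 and 19.4 FPKM in DMSO, and SPRY4 averaged 7.69 ± 1.48 FPKM after GK921 and 8.71 ± 0.181 FPKM in DMSO. Both pairs of groups overlapped, with 95% intervals of -0.36 to 0.09 for SPRY2 and -0.45 to 0.10 for SPRY4. After median-ratio scaling both were called lower, at -0.30 (limma adjusted p = 0.0222) and -0.33 (limma adjusted p = 0.0317). The call of SPRY4 also depended on the third GK921 library, the highest of its group: without it the log2 change was -0.29 (limma adjusted p = 0.0413). SPRED1, the gene mutated in Legius syndrome, had 23.9, 25.1 and 25.0 FPKM after GK921, against 35.3, 39.3 and 34.2 FPKM in DMSO (1.47-fold lower, log2 change -0.54 ± 0.061, limma adjusted p = 4.34e-05). SPRED2 averaged 17.0 ± 0.316 FPKM after GK921 and 18.9 ± 1.72 FPKM in DMSO and was not called (log2 change -0.14 ± 0.072, limma adjusted p = 0.101), though its groups did not overlap. Median-ratio, upper-quartile and quantile scaling had SPRED2 called lower, at -0.31, -0.25 and -0.29 (limma adjusted p = 0.00366, 0.0121 and 0.00531). SPRED3 stayed near the limit at 1.19 ± 0.310 and 1.12 ± 0.307 FPKM in GK921 and DMSO libraries.

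EGR1 (chr5:138465490-138469315), the zinc finger factor that is the classic early target of ERK, fell the furthest of the members. Its level was 2.09, 2.14 and 1.40 FPKM after GK921, against 7.13, 8.26 and 7.60 FPKM in DMSO. No GK921 library came near the lowest DMSO library. The fall was 4.08-fold (log2 change -1.60 ± 0.13, limma adjusted p = 4.47e-06). EGR2, EGR3 and EGR4 were under the expression limit and were not tested. EGR2 had 0.90, 0.67 and 0.13 FPKM after GK921 and 0.92, 1.64 and 0.99 FPKM in DMSO, EGR3 was at most 0.09 FPKM, and EGR4 was listed at 0 in every library.

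The IER genes and PHLDA1, also early targets of growth factors, went the other way from EGR1. IER2, a small nuclear protein gene, had 75.6, 69.3 and 72.7 FPKM after GK921, against 49.98, 43.3 and 40.6 FPKM in DMSO (log2 change 0.69 ± 0.073, limma adjusted p = 2.63e-05). IER3, a regulator of cell death, averaged 113 ± 3.77 FPKM after GK921 and 84.3 ± 5.13 FPKM in DMSO (log2 change 0.42 ± 0.049). Both have annotated antisense transcripts, over 30.8% of the exonic bases of IER2 and 26.5% of those of IER3. IER5, which acts on the heat shock factor HSF1, had 17.6, 17.8 and 22.4 FPKM after GK921, against 11.7, 11.6 and 11.9 FPKM in DMSO (log2 change 0.66 ± 0.093). PHLDA1, a pleckstrin homology-like domain gene used as a readout of MEK and ERK activity, was the most abundant member in both groups, with 135, 121 and 126 FPKM after GK921 and 103, 106 and 109 FPKM in DMSO. Its rise of 0.26 ± 0.046 log2 units (limma adjusted p = 0.00068) was 0.086 and not called after median-ratio scaling (limma adjusted p = 0.122).

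The PEA3 factors ETV1, ETV4 and ETV5, ETS activators whose mRNA is raised by ERK signalling, split. ETV5 (chr3:186046308-186110318) had 63.7, 68.2 and 61.7 FPKM after GK921, against 27.4, 28.7 and 29.1 FPKM in DMSO (2.27-fold higher, log2 change 1.15 ± 0.051, limma adjusted p = 8.56e-08). ETV4 (chr17:43527844-43579620) moved opposite, at 18.1, 15.3 and 17.6 FPKM after GK921, against 39.6, 42.6 and 41.5 FPKM in DMSO (2.43-fold lower, log2 change -1.23 ± 0.070, limma adjusted p = 4.06e-07). ETV1, the least abundant, fell to 4.99, 4.77 and 3.52 FPKM after GK921, against 8.46, 6.87 and 8.91 FPKM in DMSO (log2 change -0.75 ± 0.14, limma adjusted p = 0.000876). Each of the 3 had separate groups, as had 78.0% of all tested genes. As deposited, the sum of the 3 factors was 86.8, 88.2 and 82.75 FPKM after GK921, against 75.5, 78.2 and 79.5 FPKM in DMSO, 1.11-fold higher and without overlap. Median-ratio factors were 1.06 to 1.07 for the GK921 libraries and 0.944 to 0.947 for the DMSO libraries. That gap is larger than the rise of the sum, so the rise depends on the scaling. The most abundant of the 3 was ETV5 after GK921 and ETV4 in DMSO.

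Ratios of 2 genes within a library do not change when each library is scaled by 1 factor, though quantile normalization can change them. The pairs were picked after the values had been seen, so they are given as a description. ETV5 over ETV4 was 3.52, 4.45 and 3.51 after GK921, against 0.692, 0.674 and 0.7002 in DMSO. DUSP1 over DUSP6 was 1.18, 1.26 and 1.40 after GK921, against 0.125, 0.137 and 0.1099 in DMSO. Both pairs thus changed places in rank. DUSP6 over DUSP4, 2 phosphatase genes that ERK raises, was 1.06, 0.999 and 0.941 after GK921, against 1.38, 1.44 and 1.35 in DMSO. SPRY1 over SPRY2 was 0.370, 0.329 and 0.371 after GK921, against 0.708, 0.869 and 0.655 in DMSO. In all 4 pairs the groups stood apart, so these relatives changed unequally under any scaling by 1 factor per library.

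**Figure D3:**
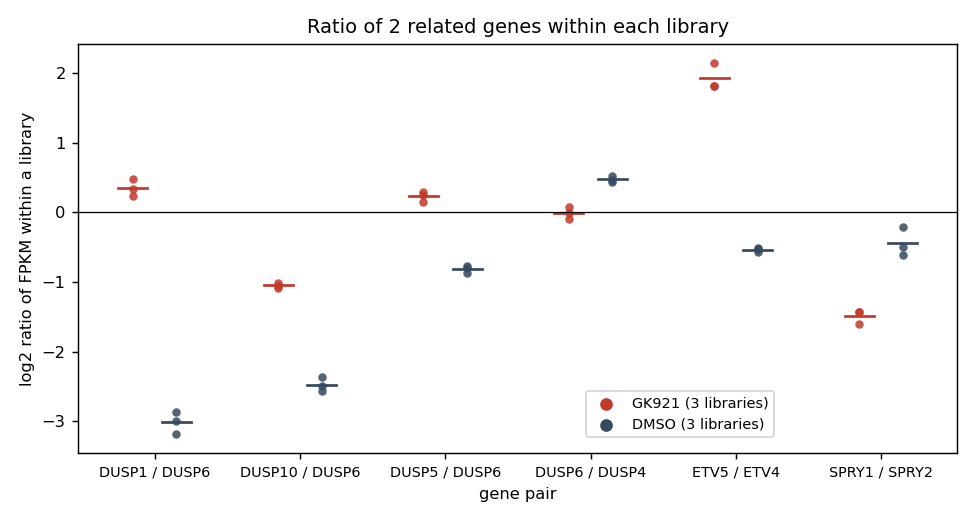
Log2 ratio of FPKM of 2 related genes within each library, for 6 pairs; points are the 3 GK921 (left of each pair) and 3 DMSO libraries (right) and lines their means. ETV5 over ETV4 and DUSP1 over DUSP6 lie above 0 after GK921 and below 0 in DMSO, and no pair has overlapping groups.

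Of SRF and its 3 ternary complex factor partners, 3 were called higher (75%, against 46.8% of all tested genes) and ELK1 was not called. SRF had 16.4, 17.0 and 17.6 FPKM after GK921, against 13.4, 14.8 and 12.5 FPKM in DMSO (log2 change 0.31 ± 0.074, limma adjusted p = 0.00403), a call lost with median-ratio scaling (limma adjusted p = 0.101) and quantile normalization (limma adjusted p = 0.0701). The ternary complex factor genes ELK3 and ELK4 were 1.31-fold and 1.42-fold higher. Neither passed limma's test against a 1.2-fold change (adjusted p = 0.121 and 0.0617). ELK1, the most abundant of the 4, had 40.9, 40.7 and 46.0 FPKM after GK921, against 47.7, 44.9 and 45.1 FPKM in DMSO, and was not called (log2 change -0.11 ± 0.058, limma adjusted p = 0.117). Without the third GK921 library, the highest of its group, it was called lower at -0.16 (limma adjusted p = 0.0205).

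**Figure D4:**
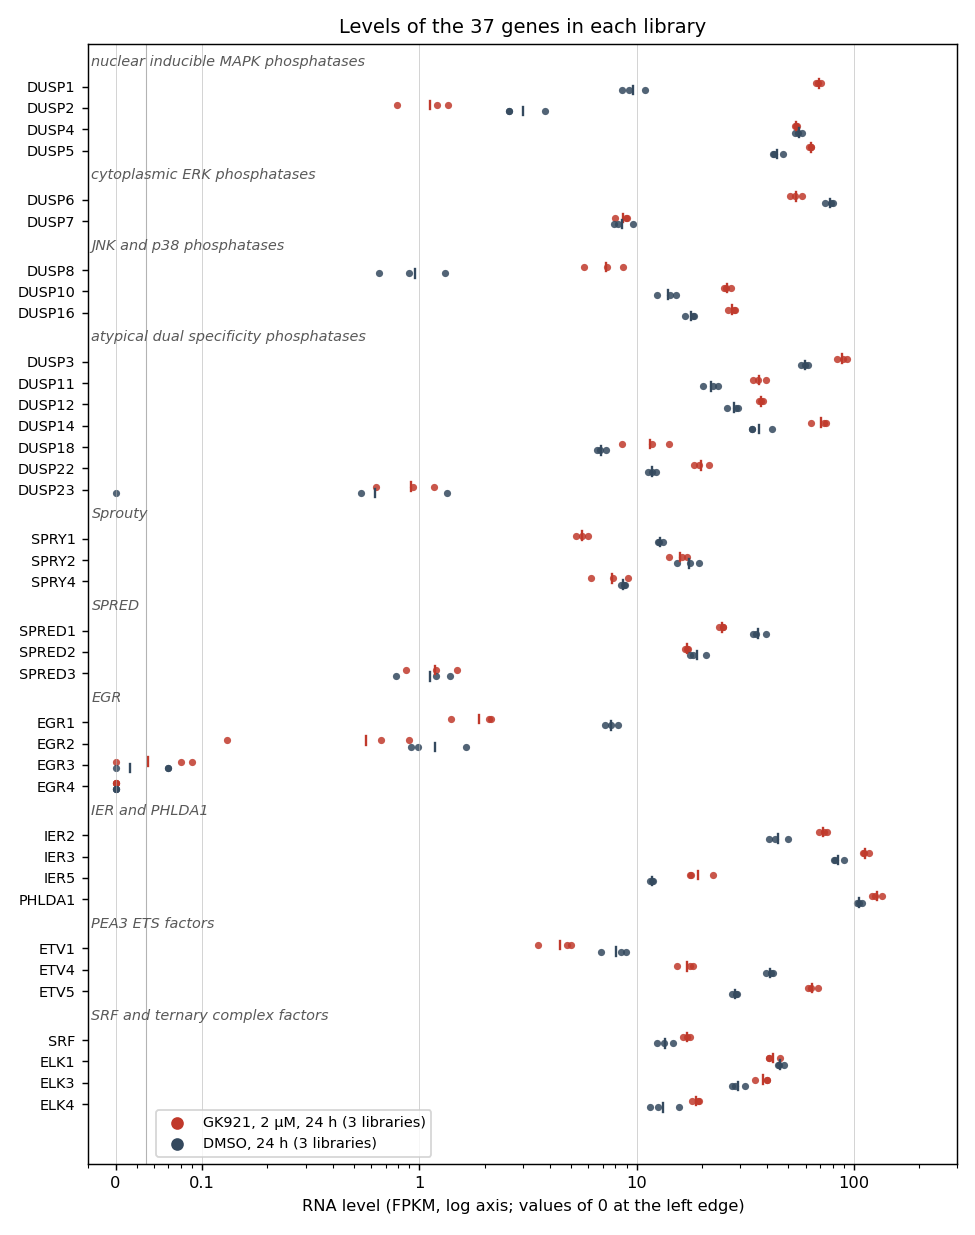
RNA level (FPKM, log axis, with values of 0 at the left edge) of all 37 members in the 3 GK921 and 3 DMSO libraries, grouped by role; short lines are group means. Libraries of a group lie close together for abundant genes and spread for those near or under 1 FPKM, and DUSP8, DUSP1, EGR1, DUSP2, ETV4, SPRY1 and ETV5 have the widest gaps between group means among the tested genes.

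The kinases and adaptors upstream of these genes moved both ways. Of 28 genes of the RAS-ERK cascade, all tested, 14 were higher (50%, against 46.8% of all tested genes) and 8 lower (28.6%, against 29.2%), with a median log2 change of 0.16 in both. PEA15, which holds ERK in the cytoplasm, rose 2.46-fold to 355 ± 12.5 FPKM, the adaptor gene SHC1 2.26-fold and the RAS exchange factor gene SOS2 2.23-fold. PEBP1, the RAF kinase inhibitor gene, fell 1.61-fold to 244 ± 4.47 FPKM, the phosphatase gene PTPN11 1.42-fold and the ERK-activated kinase gene RPS6KA3 1.38-fold. Both sides of control were thus among the largest changes in either direction. Of 21 JNK and p38 cascade genes, 7 were higher (33.3%) and 7 lower (33.3%), with a median of 0.074. MAP2K6, which activates p38, was 2.71-fold higher, and the JNK genes MAPK8 and MAPK9 1.44-fold and 1.25-fold. The p38 gene MAPK12, the p38-activated kinase gene MAPKAPK3 and the JNK activator gene MAP2K4 were 1.53-fold, 1.48-fold and 1.35-fold lower.

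Other known outputs of ERK and growth factor signalling also moved both ways. All 20 tested of 23 listed were called, 13 higher (65%, against 46.8% of all tested genes) and 7 lower (35%, against 29.2%), with a median log2 change of 0.50. Among the higher genes NR4A2 averaged 0.457 FPKM in DMSO, and among the lower ones NR4A1 averaged 0.97 FPKM after GK921. Each was tested only because of its level in the other group, so their calls add nothing to these counts. CCN1, a matricellular protein gene, rose 3.85-fold, the EGF receptor ligand gene AREG 3.00-fold and the cytokine gene LIF 2.48-fold. CCND1, the G1 cyclin gene that depends on sustained ERK activity, fell to 40.8 ± 2.19 FPKM after GK921, against 141 ± 4.002 FPKM in DMSO (3.45-fold). The chemokine gene CXCL8 fell 3.55-fold and the orphan receptor gene NR4A1 2.26-fold, to under 1 FPKM.

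Of 23 relatives of the members outside the list, 12 were tested. Among them 8 were higher (66.7%, against 46.8% of all tested genes) and 1 was lower (8.33%, against 29.2%). ETS1, founder of the ETS family, rose 2.93-fold to 81.7 ± 0.992 FPKM, ETV2 3.35-fold and DUSP28 2.70-fold, the last 2 from low levels. The repressor gene ERF was the fall, at 25.5 ± 0.446 FPKM after GK921 and 28.8 ± 2.16 FPKM in DMSO (limma adjusted p = 0.0351). That call was lost without any one of the GK921 libraries or of the first or the third DMSO library (limma adjusted p = 0.0522 to 0.124). The last list held targets of SRF with its actin-sensing partners, the MRTF proteins, and the partners' own genes MRTFA and MRTFB. Of the 14 tested targets, 11 were lower (78.6%, against 29.2% of all tested genes) and 3 higher (21.4%, against 46.8%), with a median of -0.35. The tropomyosin gene TPM2 fell 3.22-fold to 79.8 ± 5.04 FPKM, the actin cross-linker gene FLNA 1.80-fold and TAGLN 2.22-fold from a low level. CCN2 and the adhesion gene ZYX were 1.60-fold and 1.29-fold higher. MRTFA itself was 1.52-fold higher and MRTFB was not called.

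**Figure D5:**
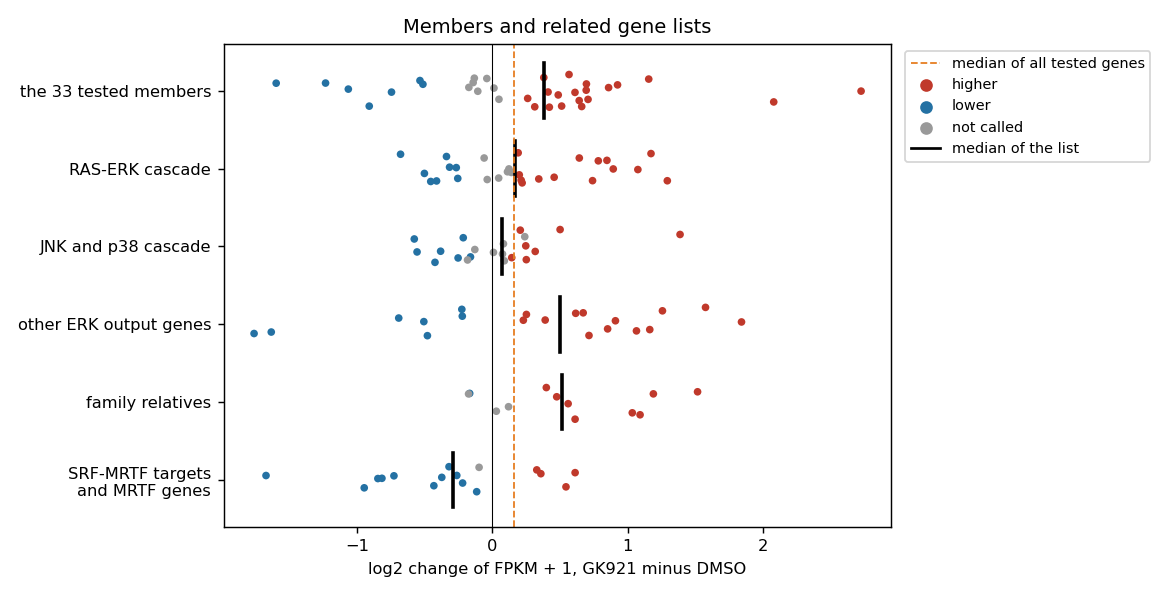
Log2 change of FPKM + 1, GK921 minus DMSO, of each tested gene of the member list and 5 related lists; points are genes coloured by call, black lines list medians and the dashed line the median of all tested genes. The SRF-MRTF list, with MRTFA and MRTFB, has a median of -0.29, and the other ERK output genes one of 0.50, with points on both sides of 0 in every list.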

How the data were processed

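RNA levels are the FPKM values the authors deposited, 1 column per library, with the unit taken from the file name. The headers of the library columns name no unit, and the values alone do not settle it. Per the submitters' processing notes, the tools included HISAT2, featureCounts and edgeR, with FastQC 0.11.5, and the build was hg38; the order of steps is not stated there. Annotation, strand setting and read totals were not found in any source. Absolute depth is therefore unknown, and counting intervals are not given. FPKM hides a change of total RNA per cell. Relative depth came from the peak of the ratios between low values of library pairs.

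Genes averaging 1 FPKM or more entered limma 3.58.1 (R 4.3.3) as log2(FPKM + 1), with treatment as the only term, an intensity trend and Benjamini-Hochberg adjustment over all tested genes. Folds are ratios of mean FPKM. An exact permutation test of 3 against 3 cannot go below p = 0.1, which the members with separate groups reached. The code was tested on simulated data. Gene positions and overlaps came from GENCODE release 29 (GRCh38), promoters from RefSeq (GRCh38.p14). Every tested member is named, with values by library at least where a called change reached 1 log2 unit and for the most abundant gene of each role. Of each related list, up to 3 called genes per direction are named. The members and lists were chosen with earlier results of these data known. Alternatives were the pseudocount, expression limit, scaling, moderation, library weights, a threshold of 1.2-fold, the replicate block and each library left out.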

Additional observations from a re-analysis of the deposited data

How the results depend on the processing

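The members' counts of 19 higher and 7 lower held within 1.5 times in each alternative except for the falls, which numbered 12 with median-ratio scaling and 12 with quantile normalization. Of 557 recomputed member values, 535 kept their side of the threshold, 15 became called and 7 lost their call. The sign differed in 12, all of DUSP7 and SPRED3, which were not called. All 7 falls and 15 of 19 rises kept their call in every alternative that tested them. The 19 rises held without each library, and the falls numbered 7 to 9. With a pseudocount of 0.1 or 5 no member's call changed. With a mean of at least 5 FPKM 29 members were tested, 18 higher (62.1%) and 5 lower (17.2%), and DUSP2, DUSP8, EGR1 and SPRED3 were not tested. Of all 9628 genes tested at that limit, 4575 were higher and 3050 lower. Against a 1.2-fold change 3595 of all 11573 tested genes were higher and 2135 lower. For related lists, that test gave 9 of 28 RAS-ERK genes higher and 3 lower, and 2 of 21 JNK and p38 genes higher and 3 lower. Of the 20 tested other ERK output genes 11 were higher and 3 lower, and of the 12 tested relatives 6 were higher and 0 lower. Of the 16 tested SRF-MRTF genes, MRTFA and MRTFB included, 2 were higher and 7 lower. Median-ratio scaling gave 9 RAS-ERK and 3 JNK and p38 genes higher and 2 relatives lower. Upper-quartile and quantile scaling each gave 4 JNK and p38 genes higher and 2 relatives lower. Leaving out a library gave 0 to 1 relatives lower. TGM2 had a log2 change of -0.15 with median-ratio scaling, against 0.017 without rescaling. The cause of these shifts was not tested. With the replicate number as a block, 19 members were higher and 7 lower. Deviations of same-numbered libraries correlated at -0.0021 to 0.047, so the numbers were not taken as pairs. FPKM without read totals limits what can be said of members near or under 1 FPKM.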
